A study of Mus musculus with 12 samples.

Results

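The cell cycle and DNA replication genes are a list of 38 genes taken by name, of the 19057 genes that at least 1 array probe named alone. Where several probes named a gene, the brightest by its mean over the arrays was used. A total of 36 were measured in this way, and Mki67 and Ccnb1 had no such probe. By role, 8 license replication origins, 5 supply nucleotides or work at the fork, 13 act in G2 and mitosis, 7 are G1 cyclins and their kinases, and 5 belong to the E2F, RB and inhibitor layer.

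RNA came from bone marrow-derived macrophages of Balb/c mice, grown in 20 ng/ml M-CSF, and was hybridised to 12 Illumina MouseWG-6 arrays, 3 in each of 4 groups. In all 4 groups M-CSF, the growth factor of these cells, had been withdrawn before treatment (overnight by the labels, for a full day in the culture methods of the study), and RNA was taken after 6 h. The untreated group received neither agent. Another received hBD3 (human beta-defensin 3, an epithelial antimicrobial peptide), another 50 ng/ml KLA (Kdo2-lipid A, the part of lipopolysaccharide that activates Toll-like receptor 4), and the last both. On the hBD3 samples the label reads 5 mg/ml, whereas the methods of the study are in micrograms, and the combined samples carry no dose. The replicates are biological, from separate mice, but whether a replicate number marks the same mouse in every group is not stated. Values are log2 of the normalized signal.

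A cell that divides first licenses its replication origins and makes nucleotides, copies its DNA in S phase, and then condenses and separates its chromosomes in mitosis. D-type cyclins with Cdk4 or Cdk6 phosphorylate the retinoblastoma protein Rb1, which releases E2F transcription factors, and these switch on many S phase genes. In macrophages M-CSF is the usual signal to enter the cycle, and Toll-like receptor ligands are known to stop M-CSF-driven division.

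Macrophage identity was clear, with 11 of 11 measured macrophage markers detected in every group. Of 7 marrow progenitor markers, Cd34, Flt3, Myb, Gata2 and Hoxa9 were detected in no array and Kit in 6 of 12. Meis1, the last of them, was detected in all arrays but those with KLA alone and fell with KLA beside the cell cycle genes (-0.73, adjusted p = 0.000538). The summed signal of the 7 was 471 to 503 in untreated and 407 to 490 in KLA arrays, and its part in the results was not tested. Of 11 measured neutrophil markers 8 were detected in no array, Camp and S100a8 rose with KLA (1.29 and 1.44) and Csf3r fell (-0.81). Of 7 dendritic cell markers Batf3 rose (1.04), 4 were detected in no array, and the summed signal went from 423 to 465 in untreated to 546 to 674 in KLA arrays. No T, NK, B or erythroid marker was detected in all arrays of a group. The summed signal of 13 stromal cell markers was 14210 in hBD3 replicate 3 and 1105 to 2106 in the other 11 arrays. For KLA replicates 2 and 3 the title includes HBD3, although their treatment labels name KLA alone. The deposited columns before normalization that equalled the KLA arrays were headed lps and not hbd3lps. With the KLA group reduced to replicate 1, 21 of the 27 calls described below were kept, and those of Cdc6, Pcna, Aurkb, Ccnd1 and E2f2 with KLA were among the 6 lost. Between 12363 and 13571 probes were detected per KLA array, 12543 to 14644 with KLA plus hBD3, 14353 to 14980 with hBD3 and 14610 to 15629 in untreated cells.

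The detection p-value of a probe compares its signal with the negative control beads of the same array, and a probe counted as detected under 0.01. In untreated and in hBD3-treated cells, 26 of the 36 genes were detected in all 3 arrays. The number was 15 with KLA and 23 with KLA plus hBD3. KLA arrays also detected fewer of all probes (12363 to 13571, against 14610 to 15629 in untreated arrays). Their median signal before normalization was lower as well (49.7 to 54.0, against 59.3 to 64.4). The part of this in the counts was not tested. Counting a gene that any group detected in all its arrays gave 27, and 15 were detected in all 12 arrays. The mitotic genes were the dimmest by this measure. Ccna2 (cyclin A2), Ccnb2 (cyclin B2) and Bub1 (a spindle checkpoint kinase) were detected in no array, with lowest detection p-values of 0.269, 0.094 and 0.156. Cdc6, Rrm2, Plk1, Bub1b, Ccne1 and Cdk6 were detected only in some arrays of a group. Relaxing the threshold to 0.05 would count 32 genes as detected in all arrays of a group.

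**Figure D1:**
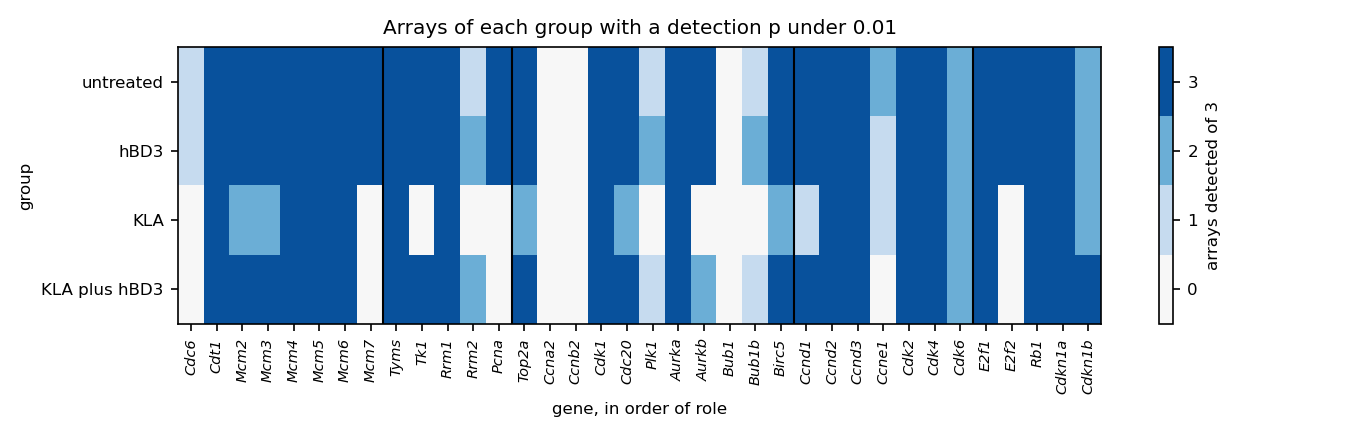
Number of arrays, of 3 in each group, in which each of the 36 measured genes had a detection p under 0.01, with genes on the horizontal axis in order of role and vertical lines between roles. KLA arrays detected fewer of them (15 genes in all 3 arrays, against 26 in untreated cells), and Ccna2, Ccnb2 and Bub1 are blank in every group. Of all probes, too, fewer were detected in KLA than in untreated arrays.

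S phase and mitotic genes differed in how often they were detected. The counts have no share of all genes beside them, and fewer of all probes were detected in KLA than in untreated arrays. Of the 13 S phase genes (licensing, nucleotide supply and fork) 11 were detected in all 3 untreated arrays and 11 in all 3 hBD3 arrays, against 6 in the KLA arrays and 9 in the combined arrays. Of the 11 measured mitotic genes, 6 were detected in all 3 arrays of the untreated and of the hBD3 group, 2 with KLA and 5 with KLA plus hBD3. The median detection p of the mitotic genes was 0.0459 with KLA and 0.00214 with KLA plus hBD3. For the S phase genes it was 0 in all 4 groups, meaning that the median gene lay above every control bead.

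KLA changed 15 of the 36 genes against untreated cells, where changed, or called, means an adjusted p under 0.05 in limma. Ccnd2, Cdkn1a and Tyms rose, and Cdc6, Mcm2, Mcm6, Mcm7, Rrm1, Pcna, Aurkb, Ccnd1, Cdk4, E2f1, E2f2 and Rb1 fell. Of all 19057 genes, 9.7% were called higher and 11.6% lower. Among the 8271 genes detected in all arrays of a group those shares were 20.6% and 25.6%, against 3 and 11 of the 27 detected cell cycle genes. The median log2 change was -0.32 over the 36 genes and -0.56 over the 27 detected, beside 0.02 over all genes and -0.07 over all detected genes. Mcm7, Pcna, E2f2 and Aurkb counted as detected only through the untreated and hBD3 groups. Such a filter favours genes that fell with KLA, so the 11 lower of the 27 detected and their median both lean towards falls. The KLA and untreated arrays did not overlap for 3 genes that were higher and 17 that were lower with KLA, beside 17.4% and 16.9% of all genes. Aligning the arrays on their medians in place of quantile normalization shifted the median detected probe by -0.52. The share of higher among all called probes then went from 46.1% to 15%, and 2 of the 36 genes were called higher and 18 lower. With the replicate number as a block 4 were higher and 15 lower, the added calls being Aurka (higher), Tk1, Cdk1 and Cdk2. The block raised the calls over all probes too, from 6717 to 7823 of 45281. In such bulk RNA, fewer cells in a phase of the cycle and less RNA per cell cannot be told apart.

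**Figure D2:**
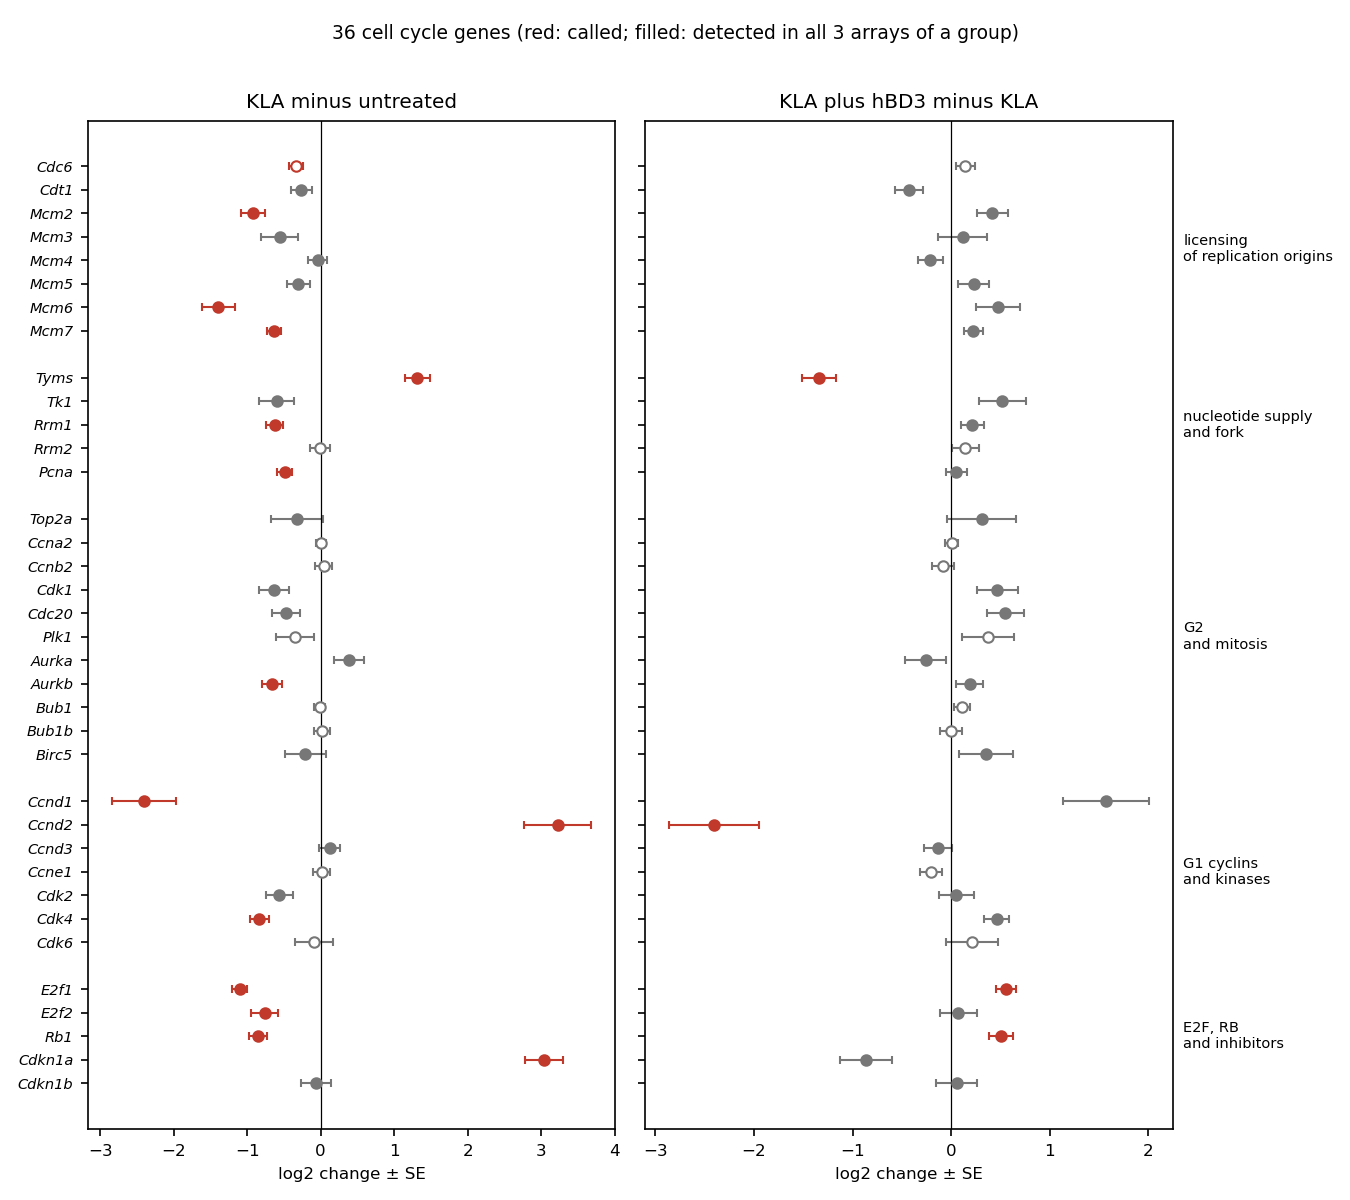
Log2 change ± SE (limma, horizontal axes) of the 36 measured genes, for KLA minus untreated (left) and KLA plus hBD3 minus KLA (right), with genes grouped by role. Red points were called, and filled points mark genes detected in all 3 arrays of a group; Ccnd1 (-2.41) and Ccnd2 (3.23) lie at opposite ends on the left.

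Of the D-type cyclins, Ccnd1 fell and Ccnd2 rose with KLA, and Ccnd3 was not called. Ccnd1 (cyclin D1) read 9.30, 8.23 and 8.61 in untreated arrays, 9.20, 7.65 and 9.25 with hBD3, 6.56, 6.12 and 6.24 with KLA, and 8.66, 7.51 and 7.46 with KLA plus hBD3. Every KLA array lay below every other array, and only 1 of the 3 detected the probe, with detection p-values of 0 to 0.0278. With KLA it fell by 2.41 ± 0.43 on the log2 scale, which is 5.30-fold (adjusted p = 0.00207, limma). With the KLA group reduced to replicate 1 it was -2.16 and was not called (adjusted p = 0.0712). Its other probes, with log2 changes of -2.17 and -1.39, were also called lower.

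Ccnd2 (cyclin D2) read 7.39, 6.29 and 6.29 in untreated arrays, 7.14, 6.24 and 7.36 with hBD3, 10.66, 9.13 and 9.85 with KLA, and 8.20, 7.38 and 6.86 with KLA plus hBD3. The 3 KLA arrays stood above all 9 others, and the untreated and the combined arrays overlapped. KLA raised it by 3.23 ± 0.46, or 9.36-fold (adjusted p = 0.000344), and its other detected probes rose by 2.66 and 2.19. Ccnd3 (cyclin D3), the third of these cyclins, read 9.66, 9.10 and 9.26 in untreated arrays and 9.41, 9.42 and 9.56 with KLA. Its groups overlapped, and the change was 0.12 ± 0.15 (adjusted p = 0.715).

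**Figure D3:**
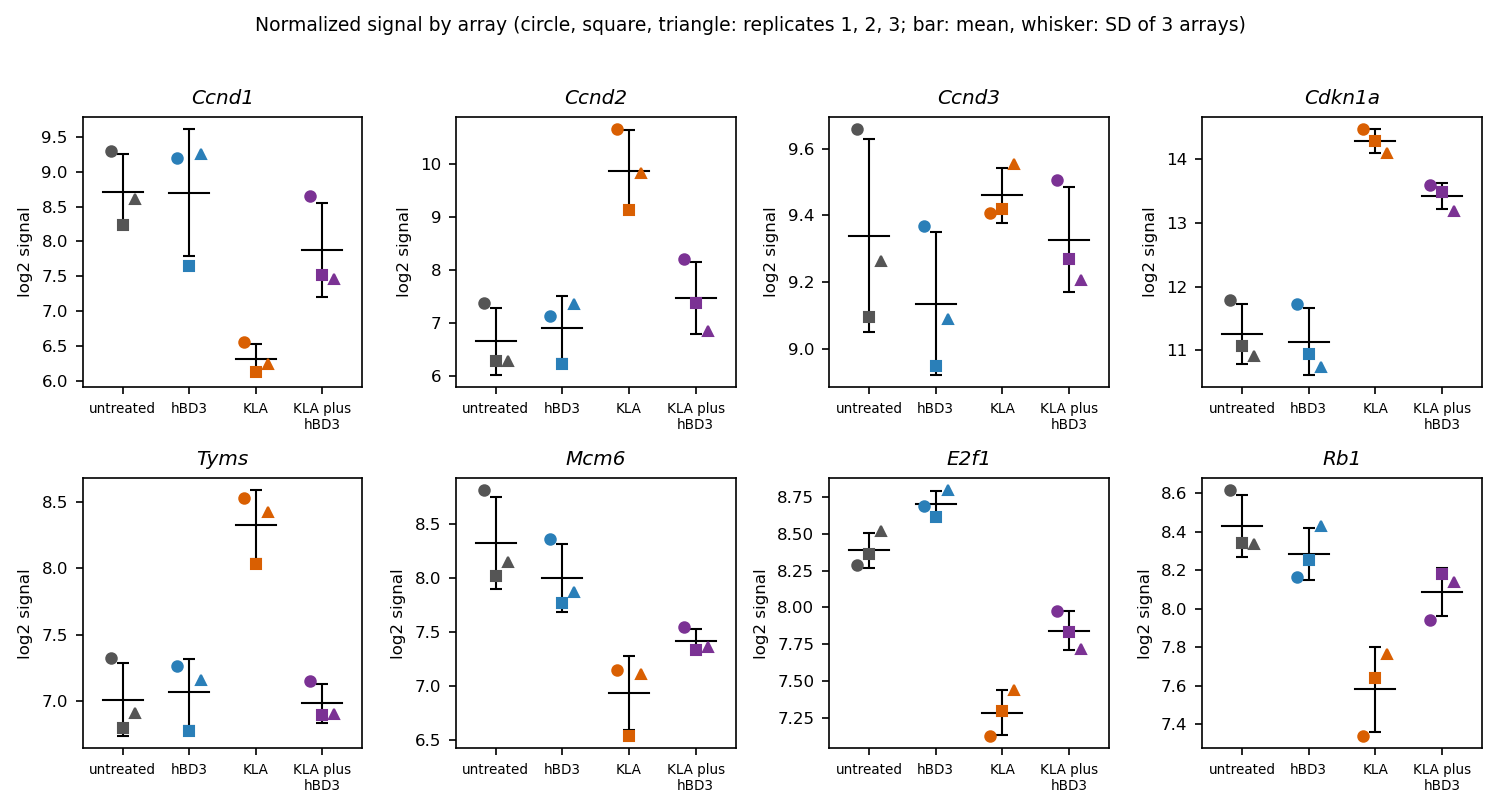
Log2 signal (vertical axes) of 8 genes in each of the 12 arrays by group, with circles, squares and triangles for replicates 1, 2 and 3, a bar for the mean and whiskers for the SD of the 3 arrays. For Ccnd2 and Tyms the KLA arrays stand above all others (9.13 to 10.66 and 8.03 to 8.52), and for Ccnd1 below all others (6.12 to 6.56), while Ccnd3 overlaps between groups.

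With hBD3 added to KLA, Ccnd2 was lower than with KLA alone, at -2.40 ± 0.46 or 5.29-fold (adjusted p = 0.00622). Ccnd1 was 1.57 ± 0.43 higher with KLA plus hBD3 than with KLA and narrowly missed the threshold (adjusted p = 0.0526), although the arrays of these groups did not overlap. Over 22 other settings the adjusted p of this Ccnd1 difference lay between 0.00269 and 0.497, and 7 of them called it. Neither cyclin differed by the test between KLA plus hBD3 and untreated cells, with Ccnd1 at -0.84 ± 0.43 (adjusted p = 0.403) and Ccnd2 at 0.83 ± 0.46 (adjusted p = 0.441). hBD3 without KLA left them at -0.01 ± 0.43 and 0.26 ± 0.46.

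Among the kinases that these cyclins activate, Cdk4 fell. It read 9.92, 9.75 and 9.63 in untreated arrays, 9.47, 9.60 and 9.62 with hBD3, 8.91, 9.20 and 8.68 with KLA, and 9.27, 9.38 and 9.53 with KLA plus hBD3. The KLA arrays were the lowest of all, and the change was -0.83 ± 0.13 (adjusted p = 0.000574). A second Cdk4 probe, detected in all 12 arrays, gave -0.55 and was not called (adjusted p = 0.287). The difference of 0.46 ± 0.13 between KLA plus hBD3 and KLA did not pass (adjusted p = 0.0501). Cdk2, the partner of cyclin E, was at -0.56 ± 0.18 with KLA (adjusted p = 0.0593, or 0.0208 with the replicate block). Cdk6 and Ccne1 (cyclin E1) were at -0.09 and 0.01 and were detected in 8 and 4 of the 12 arrays.

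In the E2F, RB and inhibitor layer all 5 genes were detected. With KLA 1 rose and 3 fell, beside 20.6% and 25.6% of the detected genes. Of those that fell, E2f2 counted as detected only through the untreated and hBD3 groups. Cdkn1a encodes p21, which inhibits cyclin-dependent kinases. It read 11.79, 11.07 and 10.91 in untreated arrays, 11.73, 10.95 and 10.73 with hBD3, 14.48, 14.28 and 14.11 with KLA, and 13.59, 13.49 and 13.19 with KLA plus hBD3. The KLA arrays were above the combined arrays, and both sets were above the rest. KLA raised Cdkn1a by 3.03 ± 0.26, or 8.19-fold (adjusted p = 6.41e-06), and its other probes by 3.29 and 2.79. With KLA plus hBD3 it was still 2.17 ± 0.26 above untreated cells (adjusted p = 0.000724), and it was the only member called higher in that comparison. The difference between KLA plus hBD3 and KLA was -0.87 ± 0.26 and did not pass (adjusted p = 0.0776), although the arrays did not overlap. Over 22 other settings its adjusted p lay between 0.00161 and 0.584, and 7 called it. Of the other probes, the difference was -0.60 (adjusted p = 0.584) and -0.77 (adjusted p = 0.0447). Cdkn1b (p27), the related inhibitor, was at -0.07 ± 0.21 with KLA and overlapped between groups.

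E2f1, an activator of S phase genes, had the smallest adjusted p of the genes that fell. It read 8.29, 8.36 and 8.52 in untreated arrays, 8.69, 8.62 and 8.80 with hBD3, 7.13, 7.29 and 7.44 with KLA, and 7.98, 7.83 and 7.72 with KLA plus hBD3. The 4 groups did not overlap at all, in the order KLA, KLA plus hBD3, untreated and hBD3 from low to high. The changes were -1.10 ± 0.10 for KLA against untreated cells (adjusted p = 1.01e-05), -0.55 ± 0.10 for KLA plus hBD3 against untreated cells (adjusted p = 0.00966) and 0.56 ± 0.10 for KLA plus hBD3 against KLA (adjusted p = 0.00434). The step from untreated cells to hBD3 alone, 0.31 ± 0.10, was not called (adjusted p = 0.487, unadjusted p = 0.00932 in limma). It was the only member with an unadjusted p under 0.05 for hBD3 alone.

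Rb1, which restrains E2F factors, fell together with E2f1. It read 8.61, 8.34 and 8.33 in untreated arrays, 8.16, 8.25 and 8.43 with hBD3, 7.34, 7.64 and 7.76 with KLA, and 7.94, 8.18 and 8.14 with KLA plus hBD3. Its KLA arrays were the lowest of all, with a change of -0.85 ± 0.12 (adjusted p = 0.000405). KLA plus hBD3 stood 0.51 ± 0.12 above KLA (adjusted p = 0.0267). That call was lost without KLA replicate 1, KLA replicate 2, KLA plus hBD3 replicate 2 or KLA plus hBD3 replicate 3, with adjusted p-values of up to 0.111, and a second probe gave 0.29 (adjusted p = 0.384). E2f2, another activator, was detected in all untreated and hBD3 arrays and in no array with KLA or with both agents. It was at least 1.24-fold lower with KLA (adjusted p = 0.0153, or 0.0657 without untreated replicate 1), and the same comparison for KLA plus hBD3 was not called (adjusted p = 0.0649). A bound of this kind sets each array of the undetected group at its lowest detected signal where the probe was dimmer.

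The licensing genes load the replicative helicase, built of Mcm2 to Mcm7, onto origins with the help of Cdc6 and Cdt1. Their promoters are known for E2F sites, so stretches of 4 of them are shown, from RefSeq (build GRCm38.p6), read 5′ to 3′ on the gene's strand. Capitals mark matches to TTTCCCGC, TTTCGCGC, TTTGCCGC or TTTGGCGC on either strand, and neighbouring matches can overlap.
Cdc6: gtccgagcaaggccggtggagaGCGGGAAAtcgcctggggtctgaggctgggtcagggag
Mcm5: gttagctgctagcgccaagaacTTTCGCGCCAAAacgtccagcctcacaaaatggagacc
Mcm6: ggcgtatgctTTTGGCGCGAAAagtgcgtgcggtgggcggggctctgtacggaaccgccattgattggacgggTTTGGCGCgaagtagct
Mcm7: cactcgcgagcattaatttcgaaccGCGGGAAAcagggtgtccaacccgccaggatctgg
These lie upstream of the start at chr11:98907991-98908050 (plus strand), chr8:75109334-75109393 (plus), chr1:128359736-128359825 (minus) and chr5:138172014-138172073 (minus). In windows of 250 bases before to 50 bases from the start on, 2.6% of 27025 genes had such a match, against 9 of the 32 members with a window and 6 of the 7 licensing genes with a window. None of the 5 nucleotide and fork genes had it, and of the licensing genes with a window Mcm2 lacked it. The members that fell with KLA had it in 4 of 9 cases, those not called in 5 of 19 and those that rose in 0 of 2. A match is a description of these letters and not a shown binding site. Mcm4, Ccna2, Aurkb, Ccnd1, Ccnd2 and Rb1 had no window in the table.

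Of the 8 licensing genes, KLA lowered Mcm2, Mcm6, Mcm7 and Cdc6, beside 11.6% of all genes and 25.6% of the detected genes. All 8 fitted changes were below 0, with a median of -0.45. Mcm6 changed most. It read 8.81, 8.02 and 8.15 in untreated arrays, 8.36, 7.77 and 7.88 with hBD3, 7.15, 6.54 and 7.12 with KLA, and 7.54, 7.33 and 7.37 with KLA plus hBD3. The KLA arrays lay below the combined arrays, which lay below the others. With KLA it fell by 1.39 ± 0.22, or 2.63-fold (adjusted p = 0.00087), and a second probe detected in all 12 arrays was also called lower (adjusted p = 0.000286). Mcm2 read 7.41, 7.36 and 7.28 in untreated arrays, 7.39, 7.08 and 7.60 with hBD3, 6.11, 6.49 and 6.69 with KLA, and 6.64, 6.97 and 6.93 with KLA plus hBD3. Its KLA and combined arrays overlapped and were below the rest. The change with KLA was -0.92 ± 0.16 (adjusted p = 0.00148), and 2 of the 3 KLA arrays detected it.

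The other helicase subunits changed less. Mcm7 was detected in every untreated and hBD3 array and in no KLA or combined array. The detection limit allows it only at least a 1.01-fold fall with KLA (adjusted p = 0.000579), and a second probe gave -0.16 (adjusted p = 0.524). Mcm3, Mcm4 and Mcm5 were at -0.56 ± 0.25, -0.04 ± 0.13 and -0.30 ± 0.16 and were not called. Cdc6 was detected in 1 untreated and 1 hBD3 array and in no other, so its call (adjusted p = 0.0362) carries no fold. It was lost without any of the 3 untreated arrays, any of the 3 KLA arrays or KLA plus hBD3 replicate 2 (adjusted p up to 0.114), and a second probe, detected in no array, turned the fitted change to 0.19.

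Cdt1, the loading factor, behaved differently from Mcm6. It read 7.89, 7.74 and 8.03 in untreated arrays, 7.85, 7.96 and 8.28 with hBD3, 7.42, 7.58 and 7.87 with KLA, and 7.29, 7.03 and 7.27 with KLA plus hBD3. Here the combined arrays were the lowest, and the KLA arrays overlapped the untreated ones. It was not called for KLA (-0.26 ± 0.14, adjusted p = 0.296) and fell by 0.69 ± 0.14 with KLA plus hBD3 against untreated cells (adjusted p = 0.0156). Without untreated replicate 3 or KLA plus hBD3 replicate 2 that adjusted p rose to as much as 0.0828.

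In the nucleotide and fork group, Tyms went against its neighbours. Tyms makes thymidylate for DNA synthesis. It read 7.32, 6.80 and 6.92 in untreated arrays, 7.27, 6.78 and 7.16 with hBD3, 8.52, 8.03 and 8.42 with KLA, and 7.15, 6.90 and 6.91 with KLA plus hBD3. The KLA arrays stood above all 9 others, which overlapped. KLA raised it by 1.31 ± 0.17, or 2.48-fold (adjusted p = 0.000175), and KLA plus hBD3 stood at -1.34 ± 0.17 relative to KLA (adjusted p = 0.000404). Against untreated cells KLA plus hBD3 left Tyms at -0.03 ± 0.17. The second probe, detected in 2 of the 12 arrays, moved the same way (0.33 with KLA, adjusted p = 0.00556). Its remaining probes, each detected in at most 1 array, gave 0.16, 0.40 and -0.03 and were not called. With arrays aligned on their medians the rise with KLA was 0.68 and was not called (adjusted p = 0.0811).

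Rrm1, the large subunit of ribonucleotide reductase, read 7.90, 7.73 and 7.63 in untreated arrays and 6.99, 7.01 and 7.39 with KLA. These groups did not overlap, and the change was -0.62 ± 0.11 (adjusted p = 0.00222). A second Rrm1 probe gave -0.42 (adjusted p = 0.0626). Pcna, the sliding clamp of the polymerases, was detected in every untreated and hBD3 array and in no KLA or combined array, with KLA detection p-values of 0.132 to 0.838. It fell with KLA (adjusted p = 0.00646), by at least 1.00-fold at this detection limit, so no size can be given. Tk1, the salvage kinase for thymidine, was likewise detected in all untreated arrays and no KLA array (adjusted p = 0.137, or 0.0264 with the replicate block), and Rrm2, the small reductase subunit, was detected in only 5 of 12 arrays.

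The mitotic genes moved less in the test. Promoters of such genes commonly pair CCAAT boxes with the cell cycle homology region, TTTGAA, and those of Cdk1 (mitotic kinase), Cdc20 (activator of the anaphase-promoting complex) and Top2a (which untangles sister chromatids) are shown up to the base before the start, with both motifs in capitals on either strand.
Cdk1: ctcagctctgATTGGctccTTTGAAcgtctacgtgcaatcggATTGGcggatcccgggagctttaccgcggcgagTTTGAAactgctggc
Cdc20: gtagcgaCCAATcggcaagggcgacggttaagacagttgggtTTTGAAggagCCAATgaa
Top2a: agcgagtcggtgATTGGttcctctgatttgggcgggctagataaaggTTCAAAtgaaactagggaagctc
They lie on the minus strand at chr10:69352913-69353002, chr4:118437344-118437403 and chr11:99024190-99024259 (GRCm38.p6). TTTGAA was found in 8 of the 11 mitotic genes with a window and in 1 of 12 S phase genes, against 20.2% of all genes. CCAAT was found in 10 of those 11 and in 8 of those 12, against 41.1% of all genes. The E2F letters above were found in 1 of the 11.

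Of the 11 measured mitotic genes 1 fell with KLA and none rose, beside 11.6% and 9.7% of all genes. An unadjusted p under 0.05 in limma was reached by 3, with no share of all genes computed at that cut. Aurkb, the kinase of the chromosomal passenger complex, read 6.95, 6.61 and 6.51 in untreated arrays, 7.02, 6.81 and 6.95 with hBD3, 6.03, 5.85 and 6.21 with KLA, and 6.42, 6.03 and 6.21 with KLA plus hBD3. No KLA array detected it, and the KLA arrays lay below all untreated arrays. It was at least 1.34-fold lower with KLA (adjusted p = 0.00489). Cdk1 read 7.69, 7.29 and 7.08 in untreated arrays, 6.76, 6.68 and 6.72 with KLA, and 7.56, 6.96 and 7.04 with KLA plus hBD3. Its KLA arrays were the lowest, but neither the change with KLA (-0.63 ± 0.21, adjusted p = 0.0653, or 0.0034 with the replicate block) nor the difference of the combined group from KLA (0.47 ± 0.21, adjusted p = 0.301) was called without the block.

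Cdc20 was not called either, with -0.47 ± 0.19 for KLA (adjusted p = 0.15) and 0.55 ± 0.19 for KLA plus hBD3 against KLA (adjusted p = 0.137), and its combined and KLA arrays did not overlap. Aurka, the spindle pole kinase, lay the other way, at 0.39 ± 0.21 with KLA (adjusted p = 0.305, or 0.044 with the replicate block). Birc5 (survivin, of the passenger complex) and Top2a were at -0.21 ± 0.28 and -0.32 ± 0.35. Plk1 (polo-like kinase) and Bub1b (spindle checkpoint) were each detected in only 4 of 12 arrays.

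Replicates of the same treatment also differed. Top2a read 7.59, 6.19 and 6.40 in the untreated arrays, 7.08, 6.35 and 6.44 with hBD3, 6.85, 6.39 and 5.97 with KLA, and 7.10, 6.35 and 6.69 with KLA plus hBD3. Replicate 1 was the highest array in each group. Birc5 read 7.43 in KLA plus hBD3 replicate 1 and 6.42 and 6.37 in the others of that group. Over the 6 detected mitotic genes, replicate 1 was highest for 6 in untreated and in combined arrays, 5 in hBD3 arrays and 4 in KLA arrays. This was not limited to the mitotic genes. Over all 27 detected members it was highest for 22 in untreated, 13 in hBD3, 13 in KLA and 18 in combined arrays, and over the 11 S phase genes for 8, 5, 5 and 6. Over all 8271 detected genes, replicate 1 was highest in 31.2% (untreated), 29% (hBD3), 20.7% (KLA) and 27.1% (KLA plus hBD3). With the replicate number as a block all 27 calls over the 5 comparisons were kept. Without replicate 1 of all 4 groups, 15 of them were kept, and that fit has fewer arrays. The 12 lost were the KLA calls of Cdc6, Rrm1 and Aurkb, all calls lower with KLA plus hBD3 against untreated cells, E2f1 and Rb1 against KLA, and both interactions (Tyms and Ccnd2).

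Set side by side, the median change with KLA was a little lower for the S phase than for the mitotic members, by less than the SD of this difference between arrays of a group. KLA called 1 S phase gene higher and 6 lower of 13 and no mitotic gene higher and 1 lower of 11, with 9 and 3 at an unadjusted p under 0.05. At the unadjusted cut no share of all genes was computed. Of all genes 9.7% were called higher and 11.6% lower (20.6% and 25.6% of the detected genes), so the mitotic count was not above the background share. The median log2 change was -0.49 for S phase and -0.21 for mitotic genes, or -0.56 and -0.39 over the 11 and 6 detected. The difference of the detected medians lay between -0.20 and -0.03 when each array was left out in turn. Among the other listed genes of these processes (below) the order was reversed. Their medians with KLA were -0.09 for replication and -0.14 for mitotic genes, or -0.14 and -0.32 over the 35 and 17 detected. With the replicate block, 7 S phase genes and 2 mitotic genes were lower and 1 of each class was higher. That fit also called more of all probes (7823, against 6717 without the block). With KLA plus hBD3 against untreated cells the detected medians were -0.41 and 0.04, a difference of -0.45 that was -0.20 without KLA plus hBD3 replicate 1. There 4 S phase genes (Cdt1, Mcm6, Mcm7 and Pcna) and no mitotic gene were called lower, and 1 mitotic gene had an unadjusted p under 0.05. Of all genes 3.44% were called lower in that comparison, and of the detected genes 7.85%. For KLA plus hBD3 against KLA the detected medians were 0.21 and 0.33, and for hBD3 alone -0.00 and 0.23. These medians are descriptions without a test, and the classes differ in signal and in number of genes. Mcm7, Pcna and Aurkb counted as detected only through the untreated and hBD3 groups, which leans the detected medians low in arrays with KLA.

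Array by array, relative to each gene's untreated mean, the S phase median was -0.46, -0.58 and -0.43 in KLA arrays and -0.41, -0.38 and -0.32 in combined arrays. The mitotic median was -0.25, -0.41 and -0.52 in KLA arrays and 0.43, -0.28 and -0.22 in combined arrays. In untreated arrays the S phase median was 0.16, -0.15 and -0.08 and the mitotic median 0.32, -0.12 and -0.22. The S phase median was thus lower in each of the 6 arrays with KLA than in any untreated array. The mitotic median of the KLA arrays was also below all untreated arrays, whereas that of the combined arrays overlapped them. Mcm7, Pcna and Aurkb, counted as detected only through the untreated and hBD3 groups, lean these medians low in arrays with KLA. The SD of the difference between the classes, within groups, was 0.25.

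**Figure D4:**
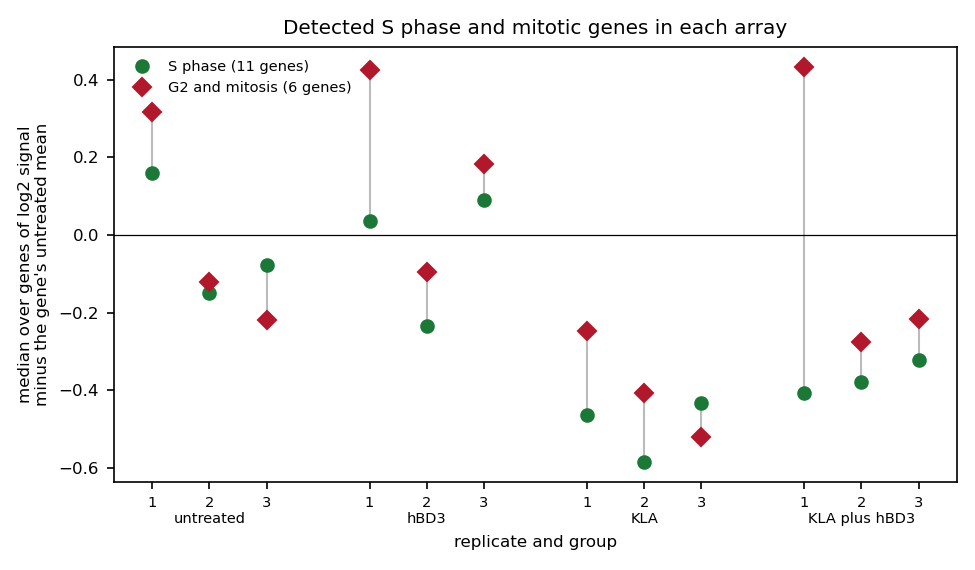
Median, over the 11 detected S phase genes (green circles) and the 6 detected mitotic genes (red diamonds), of the log2 signal minus the gene's mean in untreated cells (vertical axis), for each of the 12 arrays (horizontal axis). The classes lie near each other in most arrays and farthest apart in KLA plus hBD3 replicate 1, where the mitotic median is 0.43 and the S phase median -0.41. Mcm7, Pcna and Aurkb are included although only the untreated and hBD3 groups detected them in all arrays.

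Across all 36 genes, adding hBD3 to KLA called 2 higher (E2f1 and Rb1) and 2 lower (Tyms and Ccnd2) than KLA alone. Of all genes 5.85% were higher and 4.97% lower, and of the detected genes 13.5% and 11.1%. The combined arrays stood entirely above the KLA arrays for 11 of the 36 genes and entirely below for 4 (beside 13.2% and 12.8% of all genes). An unadjusted p under 0.05 was seen for 12 genes, without a computed share of all genes to set beside it. The median change was 0.14, beside -0.00 over all genes. Since this comparison and the KLA comparison share the KLA arrays, their opposite signs are not independent.

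KLA plus hBD3 against untreated cells called Cdkn1a higher and Cdt1, Mcm6, Mcm7, Pcna and E2f1 lower, with 3.11% of all genes higher and 3.44% lower (7.02% and 7.85% of the detected genes). The arrays did not overlap for 2 genes that were higher and 13 that were lower, beside 12.7% and 12% of all genes. Mcm6 was at -0.91 ± 0.22 (adjusted p = 0.0406). Mcm7 and Pcna were detected in no combined array and were at least 1.06-fold and 1.05-fold lower (adjusted p = 0.035 and 0.0368). These calls were close to the threshold. Leaving out an array of the untreated, hBD3 or combined group lost that of Mcm6 in 6 cases (adjusted p up to 0.154), that of Mcm7 in 5 (up to 0.15) and that of Pcna in 6 (up to 0.15). All 3 were lost without untreated replicate 3, hBD3 replicate 2 or KLA plus hBD3 replicate 2. For Mcm6 these cases further included untreated replicate 1 and KLA plus hBD3 replicates 1 and 3, for Mcm7 untreated replicate 2 and KLA plus hBD3 replicate 3, and for Pcna untreated replicate 2, hBD3 replicate 1 and KLA plus hBD3 replicate 1. Aligning the arrays on their medians raised the number of lower genes from 5 to 13, with the median detected probe at -0.49 and the share of higher among called probes at 5.23% in place of 44.7%.

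hBD3 alone changed none of the 36 genes in limma. Of all genes 0% were higher and 0.00525% lower (0% and 0.0121% of the detected genes), and among the 36 genes 1 had an unadjusted p under 0.05. The replicate block and the other settings also gave 0. The arrays did not overlap for E2f1, which was higher, and for Mcm3 and Cdk4, which were lower, beside 7.76% and 5.82% of all genes. The fitted changes spanned -0.50 (Mcm3) to 0.41 (Cdc20). The count remained 0 without hBD3 replicate 3, the array with the high stromal signal.

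The interaction subtracts the change made by hBD3 in cells without KLA from the change it made in cells with KLA. It was called for Tyms (-1.39 ± 0.24, adjusted p = 0.00752) and Ccnd2 (-2.66 ± 0.65, adjusted p = 0.0461), both negative. Of all genes 2.81% had a positive and 2.69% a negative interaction (6.48% and 6.09% of the detected genes), and 8 of the 36 genes had an unadjusted p under 0.05. For that unadjusted cut the share of all genes was not computed. The Ccnd2 call was lost in 8 of the 12 fits that left out an array, with adjusted p-values between 0.0257 and 0.119 and interactions between -3.03 and -2.27 over the 12. These were all fits but those without untreated replicate 1, hBD3 replicate 2, KLA replicate 2 and KLA plus hBD3 replicate 1. The Tyms call held in all 12, with adjusted p-values between 0.00433 and 0.0248.

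Beyond these members, 135 other genes of the same processes were listed, of which 130 were measured and 76 detected in all arrays of a group. With KLA 13 rose and 27 fell, beside 9.7% and 11.6% of all genes. Of the 76 detected 13 rose and 25 fell, beside 20.6% and 25.6% of the detected genes, so that the rises were not above the background share. With KLA plus hBD3 against KLA 14 were higher and 7 lower, all among the 76 detected, beside 5.85% and 4.97% of all genes. Of the detected genes 13.5% were higher and 11.1% lower, so the number lower was not above that share. Among 46 other replication genes 4 rose and 13 fell with KLA, beside the same 9.7% and 11.6% of all genes. The clamp loader subunits Rfc2 and Rfc1 fell by 1.41 ± 0.10 (adjusted p = 1.64e-06) and 0.86 ± 0.09 (adjusted p = 4.63e-05), and the single-strand binding subunit Rpa1 by 0.95 ± 0.12 (adjusted p = 0.000128). These 3 were higher with KLA plus hBD3 than with KLA, Rfc2 by 1.08 ± 0.10 (adjusted p = 4.66e-05). Dnmt1, the maintenance DNA methyltransferase, fell by 1.20 ± 0.15 with KLA (adjusted p = 0.000116).

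Among 43 other mitotic genes 2 rose and 7 fell with KLA, beside 9.7% and 11.6% of all genes, and 17 were detected. Mad2l1, a spindle checkpoint protein, rose by 1.78 ± 0.15 (adjusted p = 6.9e-06) and was lower with KLA plus hBD3 than with KLA (-1.33 ± 0.15, adjusted p = 0.000208). Cenpa, the centromeric histone, fell by 1.22 ± 0.29 (adjusted p = 0.0135). Incenp, the scaffold of the Aurkb complex, fell by 0.86 ± 0.13 (adjusted p = 0.000499).

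Among 41 other G1 and checkpoint genes 7 rose and 7 fell with KLA, beside 9.7% and 11.6% of all genes. Of the 24 detected 7 rose and 6 fell, beside 20.6% and 25.6% of the detected genes. The inhibitor Cdkn2b (p15) rose by 2.52 ± 0.17 (adjusted p = 1.05e-06), while the inhibitors Cdkn1c (p57) and Cdkn2c (p18) fell by 1.03 ± 0.13 (adjusted p = 0.000137) and 0.90 ± 0.12 (adjusted p = 0.000207). E2f3 rose by 1.25 ± 0.10 (adjusted p = 3.73e-06), where E2f1 and E2f2 fell. Rbl1 (p107), a relative of Rb1, rose by 1.19 ± 0.15 (adjusted p = 0.000178), where Rb1 fell. Cdc25a, a phosphatase that activates cyclin-dependent kinases, rose by 1.01 ± 0.08 (adjusted p = 2.96e-06), and Mxd4, an antagonist of Myc, fell by 1.81 ± 0.17 (adjusted p = 1.08e-05). Of these, Cdkn2b, E2f3, Rbl1 and Cdc25a were lower with KLA plus hBD3 than with KLA, and Mxd4, Cdkn1c and Cdkn2c were higher.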

How the data were processed

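The authors exported the probe intensity of each array on a linear scale, with a deposited detection p-value beside it, and deposited a table of quantile-normalized intensity values made from it. limma is named in their processing notes without a version. The 12 deposited columns before normalization, quantile normalized here, each equalled a single normalized column of the same group within 0.1% for 100% of probes. No column of another study was used. Their headings read wt, hbd3, lps and hbd3lps with a running number. Here wt was read as untreated and lps as KLA, and since no heading gives the replicate of the labels, detection was read by group.

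Of 45281 probes, 34885 named a single gene, 18 several and 10378 none in the platform annotation. A group-means model was fitted to log2 of the normalized intensity of all 12 arrays with limma 3.58.1 (R 4.3.3, 8 residual and 3.66 prior degrees of freedom, two-sided). Benjamini-Hochberg adjustment ran over all probes within each of the 5 comparisons, and a gene was called under an adjusted p of 0.05. SE is that of limma. The fit was checked on simulated data. Between 27.3% and 34.5% of probes were detected per array. With 3 arrays a group, their number limits the precision.

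The members and lists were chosen with earlier results of these data known. All measured members are accounted for. From the other lists, up to 4 called genes each way by size of change could be named for the KLA effect and for the hBD3 effect in cells with KLA. Same-numbered arrays deviated together for KLA with untreated (correlations of 0.34, 0.24 and 0.56 over all probes) and for hBD3 with untreated (0.31, 0.19 and 0.52). Whether the same mouse or shared handling lies behind this was not tested. For KLA plus hBD3 they did not in every pair. Alternatives covered scaling, background, dim probes, choice of probe, prior variance, the replicate number as a block, the KLA titles and each array left out. Dropping replicate 1 of all 4 groups was added after the data were seen. The study used 2 BeadChips, and the headings do not assign arrays to them. In the deposited order all arrays with KLA precede those without it, while the running numbers of the headings alternate the groups. If the chips followed the deposited order, a chip effect cannot be told apart from that of KLA.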

Additional observations from a re-analysis of the deposited data

Results flagged for a closer look

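The effect of hBD3 differed between cells with and without KLA for 2 of the 36 genes, by limma's test of the interaction. Both interactions were negative, beside 2.69% of all genes and 6.09% of the detected genes. As 2 of the 27 detected members, the count was near the share of the detected genes. For Tyms the difference was -1.39 (log2, adjusted p = 0.00752). hBD3 left Tyms at 0.05 ± 0.17 without KLA and lowered it by 1.34 ± 0.17 with KLA. For Ccnd2 it was -2.66 (adjusted p = 0.0461), from 0.26 ± 0.46 without KLA to -2.40 ± 0.46 with KLA. The other detected Ccnd2 probes were also lower with KLA plus hBD3 than with KLA, at -2.03 and -1.86. With the second Tyms probe the interaction was -0.19 and was not called (adjusted p = 0.458, limma). Over 22 other settings 19 called the Tyms interaction and 10 the Ccnd2 interaction.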

How the results depend on the processing

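Of the 27 calls of a member in a comparison, the replicate block kept 27, neqc 24, median centring 23 and the second probe of a gene 19. The BeadChip block was not run, since the headings name no chip. The number of members lower with KLA was 7 when the KLA group was reduced to replicate 1. For KLA plus hBD3 against untreated cells it was 13 with median centring and 0 when dropping the first arrays of all 4 groups. For KLA plus hBD3 against KLA, the number higher was 1 with median centring, 4 with detected probes only, 6 with the replicate block, 1 with the median of a gene's probes, 4 when dropping the third arrays of KLA, untreated and hBD3, and 0 when dropping the first arrays; the number lower was 4 with the replicate block. In the interaction, the number higher was 1 with detected probes only, 2 with the replicate block, 1 with KLA replicate 1 alone and 2 when dropping the third arrays. The number lower was 0 with median centring, 1 with neqc, 4 with the replicate block, 1 with second probes, 1 when dropping the third arrays and 0 when dropping the first arrays. The S phase median minus the mitotic median for KLA plus hBD3 against untreated cells was -0.74 with neqc. The block added calls of Aurkb and E2f2 (KLA plus hBD3 against untreated cells), of Cdt1, Mcm6, Cdk1, Ccnd1, Cdk4 and Cdkn1a (against KLA) and of Cdt1, Mcm6, Ccnd1 and Cdkn1a (interaction). These comparisons all involve the combined arrays, whose deviations correlated little or not at all with same-numbered arrays (values below). Over all probes the block raised the calls in them too. They went from 1986 to 3065 against untreated cells, from 3165 to 4161 against KLA and from 1542 to 2307 in the interaction. Second probes reversed Cdc6 with KLA (0.19) and Mcm7 with KLA plus hBD3 against untreated cells (0.020). The causes were not tested, beyond the smaller number of arrays when some are dropped.

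Leaving out each array in turn gave 3 to 3 members higher and 10 to 13 lower with KLA, 0 to 0 either way with hBD3, 1 to 1 higher and 1 to 6 lower with KLA plus hBD3 against untreated cells, 1 to 4 higher and 2 to 3 lower against KLA, and 0 to 2 higher and 1 to 2 lower in the interaction. The S phase median minus the mitotic median ranged from -0.20 to -0.03 with KLA, -0.35 to -0.04 with hBD3, -0.57 to -0.20 with KLA plus hBD3 against untreated cells and -0.33 to 0.05 against KLA. Same-numbered arrays correlated at 0.17, -0.00 and -0.05 between the combined and the KLA arrays and at 0.09, 0.05 and 0.03 between the combined and the untreated arrays, and 10 of 12 arrays were closest to their own number. For probes near background, signal limits what can be seen: 9 of the 36 genes were not detected in all arrays of any group.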
